A study of Mus musculus with 12 samples.

Results

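Lipopolysaccharide (LPS) left 143 genes of BV-2 cells, a mouse microglial line made to grow without limit, at a lower level than in untreated cells by at least 1.2 on the log2 scale on each of 3 slides. Receptors that guide cell movement (Cxcr4, Gpr183, S1pr1, Cnr2), inhibitors of growth signalling (Pik3ip1, Deptor), the lipid enzyme Lpin1, the sialyltransferase St6gal1 and the transcription factors Foxo6, Klf4 and Hey1 are among them. The genes were selected on the LPS and untreated values themselves, so their drop with LPS is a description with no test. A probe was eligible if it was well above background on all 3 untreated arrays, and it passed if the drop held between the LPS and the untreated array of replicates 1, 2 and 3. Of 23810 eligible probes 168 passed, a share of 0.706%, and they collapsed to 143 accessions, 115 of them with a gene symbol. The other 28 are unnamed transcripts. Only passing probes were collapsed, to the brightest of each accession, so other probes of a chosen gene need not have passed. The probes tested in the fits below, a set other than the eligible probes, held 19610 accessions.

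The 12 arrays fall into 4 groups of 3: untreated BV-2 cells, cells given 100 ng/ml LPS, cells given 20 µM curcumin (a polyphenol of turmeric), and cells given 100 ng/ml LPS and 20 µM curcumin together, written here as LPS+curcumin. The labels give 6 h for the treatments, no time for the untreated cells and no vehicle, and all groups are the same line. The series' title puts its aim as a definition of microglia given curcumin by their transcripts. Nothing in the labels says that the replicates were separate cultures, so p-values measure the spread between these arrays, which may be technical. Each slide carried 1 array of each group, always in the same position, so that group and position cannot be told apart. A level is the log2 of the processed spot signal minus the 75th percentile of its array, and a level below 0 is below that percentile. Levels of different probes are not comparable with each other.

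All 19 microglia and macrophage markers on the array were well above background on all 3 untreated arrays, against 2 of 7 astrocyte, 3 of 7 neuron, 3 of 6 oligodendrocyte and 1 of 6 fibroblast markers. Of the spots of an array 58% to 65.9% were well above background, and arrays of one group correlated at 0.929 to 0.996. The first LPS+curcumin array did not resemble its group. Its mean correlation was 0.981 with LPS arrays and 0.949 with curcumin arrays, whereas for replicates 2 and 3 it was 0.937 and 0.920 with LPS, and 0.983 and 0.984 with curcumin. LPS+curcumin replicate 2 carried 1594 outlier spots, against at most 163 on any other array. The main counts and medians that involve the LPS+curcumin group are therefore also given without replicate 1. In these bulk RNA samples, fewer expressing cells and less RNA per cell cannot be told apart.

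LPS binds Toll-like receptor 4 of macrophages and microglia and activates NF-kB and interferon regulatory factors, which switch on cytokine and antiviral genes. The same activation lowers many transcripts that mark the surveying state of a microglial cell, among them receptors for chemokines, nucleotides and lipids that steer its processes and its migration. Such a loss can come from reduced transcription or from faster decay of the RNA, and arrays measure neither separately. All 15 genes of a list of NF-kB and interferon targets stood at least 1.2 higher with LPS on every slide, with a median log2 difference of 7.24 and Tnf at 4.88.

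The promoters of the chemokine and oxysterol receptor genes Cxcr4 and Gpr183, and of Sgsh, Ypel3 and Tbx6, which have another member as a neighbour, are shown because the results return to these genes. They are the 250 bases before the annotated start, 5' to 3' on the gene's strand, from RefSeq on GRCm38.p6. Capitals mark TATAAA on either strand or the E-box CACGTG. The Cxcr4 promoter lies at chr1:128592300-128592549 on the minus strand, that of Gpr183 at chr14:121965194-121965443 on the minus strand, that of Sgsh at chr11:119355511-119355760 on the minus strand, and those of Ypel3 at chr7:126776713-126776962 and Tbx6 at chr7:126781233-126781482 on the plus strand.
Cxcr4: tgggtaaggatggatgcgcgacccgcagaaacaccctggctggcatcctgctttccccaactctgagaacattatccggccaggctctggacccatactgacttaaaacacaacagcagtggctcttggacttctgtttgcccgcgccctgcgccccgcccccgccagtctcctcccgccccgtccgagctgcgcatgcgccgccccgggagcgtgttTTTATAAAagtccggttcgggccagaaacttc
Gpr183: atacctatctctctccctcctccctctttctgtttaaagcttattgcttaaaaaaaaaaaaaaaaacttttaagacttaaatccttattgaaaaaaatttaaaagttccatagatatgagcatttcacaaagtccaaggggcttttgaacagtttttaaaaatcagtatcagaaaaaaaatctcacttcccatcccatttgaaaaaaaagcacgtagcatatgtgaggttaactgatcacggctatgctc
Sgsh: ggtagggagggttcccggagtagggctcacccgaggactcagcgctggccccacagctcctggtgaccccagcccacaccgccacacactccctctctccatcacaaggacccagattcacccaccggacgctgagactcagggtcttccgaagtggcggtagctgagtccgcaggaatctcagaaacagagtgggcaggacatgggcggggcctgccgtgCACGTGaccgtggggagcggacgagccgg
Ypel3: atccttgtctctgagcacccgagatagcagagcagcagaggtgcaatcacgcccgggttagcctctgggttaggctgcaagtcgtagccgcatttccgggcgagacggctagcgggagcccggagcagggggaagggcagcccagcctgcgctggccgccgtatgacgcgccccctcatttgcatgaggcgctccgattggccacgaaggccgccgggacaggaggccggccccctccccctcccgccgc
Tbx6: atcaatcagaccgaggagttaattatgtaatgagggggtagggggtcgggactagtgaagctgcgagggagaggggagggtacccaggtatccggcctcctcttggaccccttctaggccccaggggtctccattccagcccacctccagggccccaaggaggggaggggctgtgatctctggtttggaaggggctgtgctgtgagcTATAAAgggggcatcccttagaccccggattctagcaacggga
The Cxcr4 promoter holds TATAAA at position -30, overlapped by its reverse complement from -32. That of Tbx6 holds TATAAA at -43, and that of Sgsh holds an E-box at -29. Neither motif is in the windows of Gpr183 and Ypel3.

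RefSeq sequences were matched for 86 members, with 103 promoters in all. Their median GC content was 61.2%, against 59.2% in the 12129 promoters of genes well above background on all untreated arrays and 52.4% in all 32851 promoters. The NF-kB motifs GGGACTTTC, GGGGATTTC, GGGAATTTC and GGGGCTTTC, read on both strands, were in none of the members' promoters and in 1.15% of those of genes well above background in untreated cells. The E-box CACGTG was in 7.77% of the members' promoters and 8.29% of that background, TATAAA in 8.74% and 7.31%, the AP-1 motifs TGACTCA and TGAGTCA in 5.83% and 3.34%, and the GC box GGGCGG in 47.6% and 55.0%. These shares lie near the background, and a missing match says only that the letters are not in the window.

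**Figure D1:**
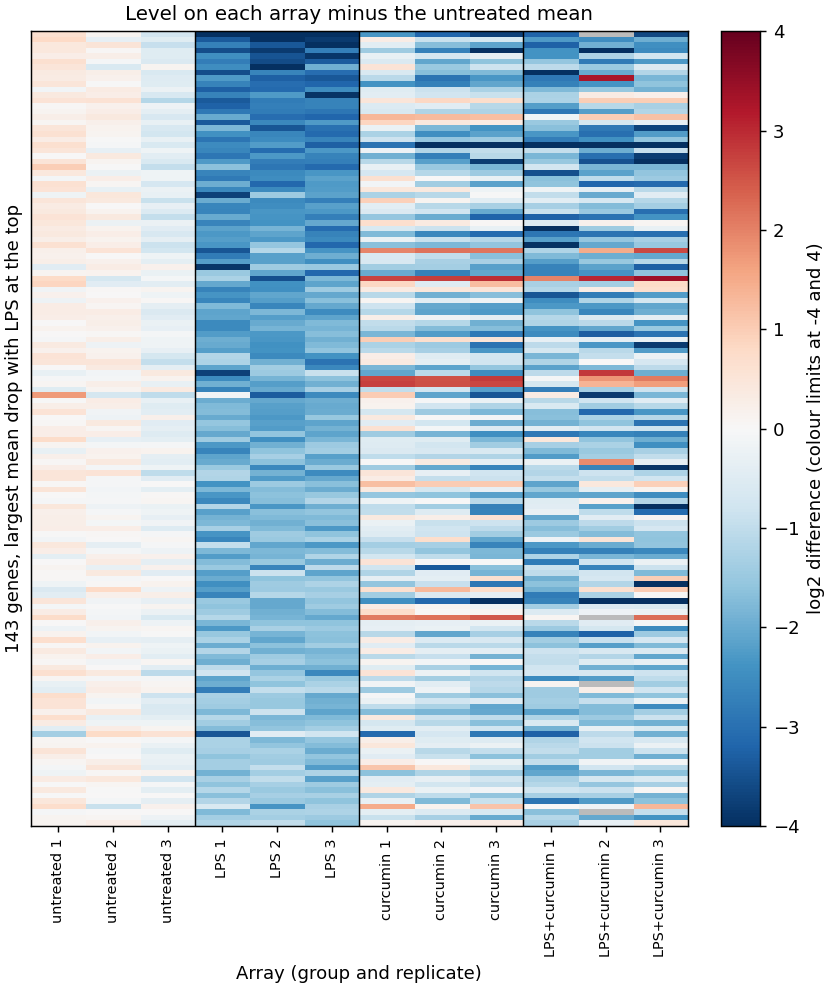
Level of each of the 143 genes on each of the 12 arrays minus its mean on the 3 untreated arrays (log2, colour), with arrays in columns by group and replicate and genes in rows, the largest mean drop with LPS at the top. The LPS columns are blue throughout because of how the genes were chosen, the curcumin columns hold both blue and red rows, and grey marks the 4 values dropped as outliers on LPS+curcumin replicate 2.

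The mean drop with LPS ran from -1.27 to -5.44 with a median of -1.94 (log2, mean of 3 slides), while the median over all probes tested was -0.01. The median drop of the 143 genes differed by slide, at -2.22, -2.03 and -1.60 on slides 1, 2 and 3. In 139 of the genes every LPS array lay below every untreated array, which the rule largely fixed in advance. The same share over all probes was not counted. With LPS, 103 genes were still well above background on all 3 arrays, 14 on 2, 8 on 1 and 18 on none. For the last group only bounds can be given, with the dim side set at the lowest signal that counted as well above background on each array or the probe's own signal, whichever is higher.

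The chemoattractant and purinergic receptors contributed 5 members of 28 such genes tested: Cxcr4, Cxcr2, S1pr1, Gpr183 and Gpr34. The list as a whole did not fall with LPS. Of the 28 genes 8 were lower on every slide by any amount and 5 were at least 1.2 higher on every slide. The median difference of the list was 0.26. Cxcr4, the receptor of the chemokine Cxcl12, had the largest mean drop of the members still measured on at least 2 LPS arrays, 14.1-fold (log2 -3.82 ± 0.42 SD, n = 3 slides). Its level was -2.38, -3.52 and -3.65 on the untreated arrays, -6.54, -7.46 and -7.00 with LPS, -2.90, -4.07 and -3.88 with curcumin, and -5.44, -5.65 and -5.12 with LPS+curcumin, in the order of replicates 1, 2 and 3. Curcumin alone left Cxcr4 near the untreated level, and the cells given both agents lay between the LPS arrays and all others, without overlap.

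Gpr183, the receptor that leads immune cells along oxysterol gradients, behaved otherwise. It stood at 2.61, 1.94 and 1.38 in untreated cells, at -0.53, -0.26 and -1.29 with LPS, at -0.96, -2.48 and -4 with curcumin, and at -2.01, -4.07 and -4.28 with both. LPS left it 6.37-fold lower (log2 -2.67 ± 0.47 SD, n = 3), and curcumin left it lower still on every slide. S1pr1, a receptor of sphingosine-1-phosphate, was at -0.97, -1.40 and -2.10 untreated, -3.76, -4.26 and -4.23 with LPS, -2.62, -3.67 and -5.28 with curcumin, and -3.02, -4.96 and -6.81 with both. Each treated array of S1pr1 lay below every untreated array, and the curcumin arrays differed among themselves more than the LPS arrays did.

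Cnr2, the cannabinoid receptor of immune cells, was at 0.51, 0.18 and 0.04 untreated, -1.57, -1.55 and -1.49 with LPS, -0.87, -1.34 and -1.56 with curcumin, and -2.47, -2.47 and -2.32 with both. The LPS+curcumin arrays of Cnr2 lay below all other arrays. Gpr34, a microglial receptor of lysophosphatidylserine, was 5.18-fold lower with LPS and well above background on 2 of 3 LPS arrays. Of receptors chosen after their values were seen, P2ry1, a receptor of ADP, was 3.63-fold lower and the adhesion receptor Adgrg1 3.27-fold lower. Mertk, also chosen in that way, through which macrophages take up apoptotic cells, was 5.49-fold lower (log2 -2.46 ± 0.81 SD, n = 3). This receptor was the only one of the 19 microglia and macrophage markers on the array among the 143 genes. Rgs2 and Rgs18, which end signalling by G proteins downstream of such receptors, were 2.69-fold and 3.19-fold lower.

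Cxcr2, the neutrophil chemokine receptor, was dim in untreated cells and not well above background on any LPS array, a drop of at least 1.96-fold. It was at -6.13, -5.99 and -6.52 untreated, -3.48, -3.64 and -3.55 with curcumin, and -6.93, -4.86 and -4.55 with LPS+curcumin. Curcumin arrays lay above all untreated arrays, and with both agents replicate 1 lay below all untreated arrays while replicates 2 and 3 were above it. The highest bounds were those of Rtn4rl1, a relative of the Nogo receptor, at least 12.8-fold lower with LPS, Lbh at least 5.83-fold, Abca6 at least 3.80-fold and Strip2 at least 3.6-fold.

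**Figure D2:**
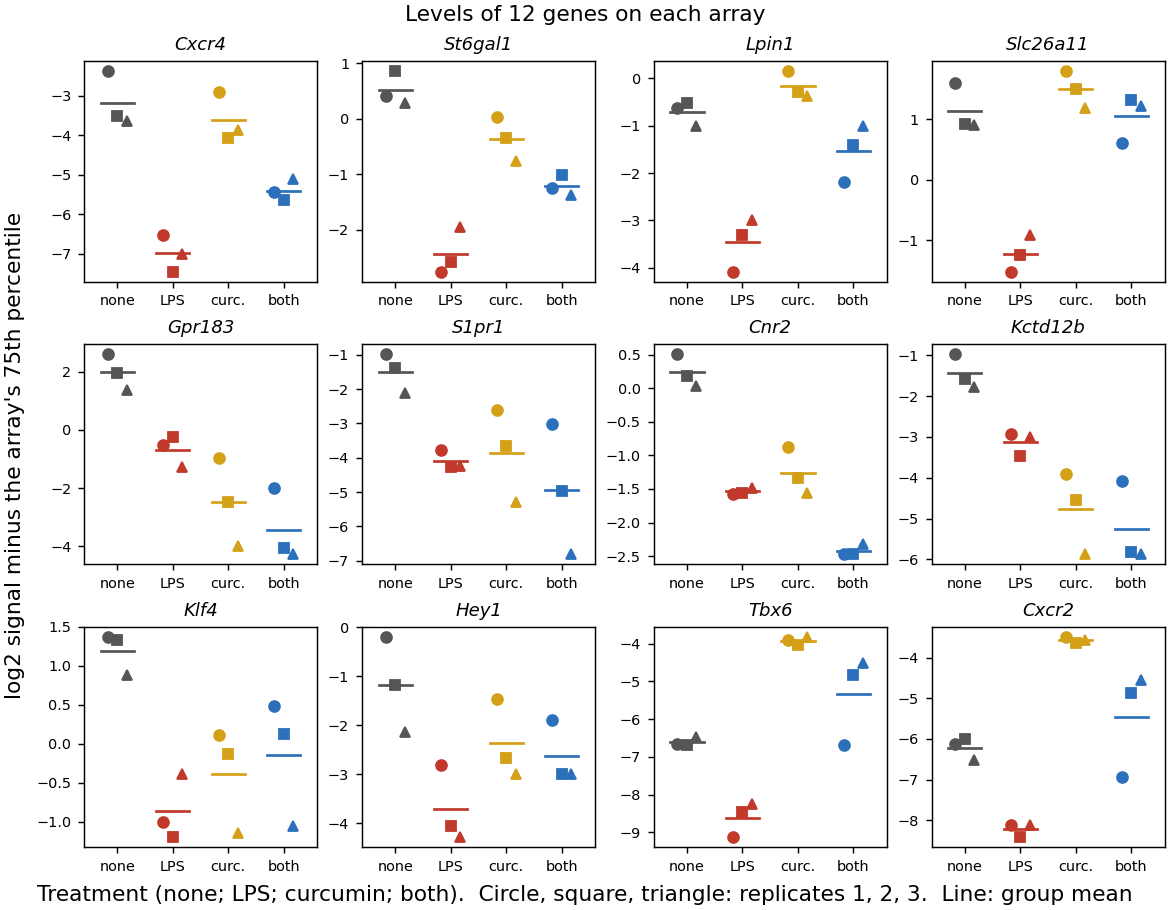
Level of 12 genes on each array (log2 signal minus the array's 75th percentile) in untreated cells (none), with LPS, with curcumin (curc.) and with both, where circles, squares and triangles are replicates 1, 2 and 3 and lines are group means. Cxcr4 with both agents lies between the LPS arrays and the others, Gpr183 and Kctd12b are lowest in the curcumin groups, and Tbx6 and Cxcr2 are highest with curcumin alone.

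Among the transcription factors of myeloid quiescence 2 of 42 tested were members, Foxo6 and Klf4. The level of Foxo6, a forkhead factor, was -4.02, -3.90 and -4.27 untreated, -7.31, -6.78 and -6.74 with LPS, -4.62, -4.51 and -5.18 with curcumin, and -6.26, -5.17 and -5.37 with both. Klf4, a Krüppel-like factor that restrains and polarises macrophage activation, was at 1.38, 1.33 and 0.88 untreated, -1, -1.19 and -0.39 with LPS, 0.12, -0.14 and -1.14 with curcumin, and 0.49, 0.13 and -1.05 with both. Foxo6 was thus 7.37-fold lower with LPS and Klf4 4.16-fold lower. All LPS+curcumin arrays of Foxo6 lay above all LPS arrays, while those of Klf4 overlapped both the LPS and the curcumin arrays.

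Hey1, a repressor induced by Notch, was 5.85-fold lower with LPS, and its untreated arrays alone spread from -0.19 to -2.13. Pax3, a paired-box factor, was at -2.58, -2.54 and -2.66 untreated, -4.84, -4.89 and -4.29 with LPS, -4.42, -4.84 and -5.41 with curcumin, and -5.11, -5.88 and -5.54 with both. Every treated array of Pax3 lay below every untreated array. Zfp667 was the only member of 25 zinc finger genes tested, 3.27-fold lower with LPS. The Polycomb protein gene Cbx2 and the corepressor gene Cbfa2t3, named after their values were seen, were 3.52-fold and 4.80-fold lower.

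A further set, put together after the values were seen, acts in growth and stress signalling. Pik3ip1, an inhibitor of phosphoinositide 3-kinase and the only member of 39 signalling genes tested, was at 1.33, 1.26 and 0.62 untreated, -1, -1.14 and -1.04 with LPS, 1.29, 0.92 and 0.71 with curcumin, and -0.06, 0.49 and 0.70 with both. Deptor, an inhibitor of the kinase mTOR, was at 0.42, 0.57 and 0.06 untreated, -1.01, -1.07 and -1.42 with LPS, 0.63, 0.35 and 0.08 with curcumin, and -0.59, 0.21 and 0.27 with both. In Pik3ip1 and Deptor the curcumin arrays overlapped the untreated arrays, and the LPS+curcumin arrays lay above all LPS arrays. Sesn1, a stress-induced inhibitor of mTOR complex 1, was 3.03-fold lower with LPS, and Fbxo32, the ubiquitin ligase atrogin-1, was 5.36-fold lower. Inpp5j, an inositol phosphatase, was 4.42-fold lower. Bambi, a decoy receptor of TGF-beta signalling, was at 2.54, 2.56 and 2.57 untreated and at 0.89, 1.23 and 1.25 with LPS, with a similar range in the curcumin groups of 0.66 to 1.53.

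Enzymes and transporters of lipids included Lpin1, a phosphatidate phosphatase and coactivator and the only member of 35 lipid and sterol genes tested. It was at -0.62, -0.52 and -1 untreated, -4.08, -3.31 and -2.99 with LPS, 0.15, -0.29 and -0.38 with curcumin, and -2.19, -1.40 and -1 with both, a drop of 6.69-fold with LPS. The LPS+curcumin arrays of Lpin1 lay above all LPS arrays and below all curcumin arrays. Dgkg, a diacylglycerol kinase, was 7.17-fold lower with LPS, and Abcd2, a peroxisomal transporter of fatty acids, 6.62-fold lower. Members that handle glycans included St6gal1, which adds alpha-2,6-linked sialic acid. Its level was 0.41, 0.86 and 0.28 untreated, -2.76, -2.59 and -1.96 with LPS, 0.03, -0.34 and -0.76 with curcumin, and -1.25, -1.01 and -1.38 with both, so that LPS left it 7.74-fold lower and the 4 groups did not overlap. These values are of 1 probe. A second St6gal1 probe fell less with LPS, by log2 differences of -1.59, -1.68 and -1.16 on slides 1, 2 and 3, and did not pass the rule. St6gal1 and Hs3st1 were the members among 30 glycosyltransferase and sulfotransferase genes tested. Galnt9, another glycosyltransferase, was at least 1.71-fold lower, and Hs3st1 at least 1.15-fold.

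Several members are known best from other leukocytes, osteoclasts or squamous epithelium, and apart from Cytip and Scel they were chosen after their values were seen. Cytip, which regulates leukocyte adhesion, was 6.50-fold lower with LPS, Klhl6, a B cell ubiquitin ligase adaptor, 4.46-fold lower, and Ocstamp, a protein of osteoclast fusion, 3.00-fold lower. Scel, the cornified envelope protein sciellin, was at -2.66, -2.70 and -3.43 untreated and -5.40, -6.38 and -6.83 with LPS, 9.65-fold lower. Ivl, the envelope precursor involucrin, was at least 2.06-fold lower. Of the B cell markers 2 of 3, and of the T cell markers 2 of 4, were well above background on all untreated arrays, and their part in the level of Klhl6 was not tested.

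The remaining lists fixed for comparison held few or no members. Of the cell cycle genes 0 of 46 tested were members, though 35 were lower on every slide by any amount, against 30.8% of all probes tested, with a median of -0.37. Toll-like receptors and innate sensors gave 0 of 22 and a median of 0.22. Small GTPase and G protein regulators gave 3 of 35 (Rgs2, Rgs18 and Arhgap18), solute carriers and channels 2 of 29 (Slc37a2 and Slc46a3), and adhesion and cytoskeleton genes 1 of 37 (Scel). In all, 18 members were in at least 1 list.

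Some members lie side by side on the chromosome, and were chosen for description on that ground after their values were seen. Of the 115 members placed in the order of protein-coding genes, 4 pairs were adjacent, in 3 places. Card14, an NF-kB scaffold protein, Sgsh, the lysosomal sulfatase of heparan sulfate, and Slc26a11, an anion transporter, follow each other, and differed by -1.95 ± 0.20, -2.42 ± 0.56 and -2.37 ± 0.67 (log2, SD, n = 3 slides). The next tested genes on either side did not share the drop: Eif4a3 was at -0.03 ± 0.16 and Endov at 0.20 ± 0.13. With curcumin the 3 neighbours parted. Slc26a11 was at 1.60, 0.92 and 0.90 untreated, -1.52, -1.25 and -0.92 with LPS, and 0.60, 1.32 and 1.22 with both. Sgsh was at 0.98, 0.65 and 0.30 untreated, -1.97, -1.84 and -1.53 with LPS, and -0.70, -1.08 and -0.70 with both. Card14 was at 0.76, 0.51 and 0.92 untreated, -1.30, -1.57 and -0.80 with LPS, and -0.95, -0.53 and -0.37 with both. With both agents Slc26a11 overlapped its untreated arrays, while Sgsh and Card14 stayed below theirs.

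Ypel3, a small protein induced in growth arrest, and Tbx6, a T-box factor, are also adjacent, with the promoters printed above. Ypel3 differed by -1.94 ± 0.40 with LPS. Tbx6 was not well above background on any LPS array and was at least 1.5-fold lower. Their neighbours Gdpd3 and Ppp4c were at -0.08 ± 0.09 and 0.25 ± 0.31. With curcumin alone Ypel3 differed from untreated by 0.00 and Tbx6 by 2.68 (log2). Abca9 and Abca6, ATP-binding cassette proteins, are adjacent, and Abca9 differed by -1.63 ± 0.29. Abca6, not well above background on any LPS array, was at least 3.80-fold lower. Map2k6, a kinase that activates p38, lies 1 gene further and differed by -1.53 ± 0.17. The genes of this cluster are related in sequence, so the assignment of signal among them is uncertain, and the related Abca8a and Abca5 beside them were at -0.30 ± 0.31 and -0.23 ± 0.20.

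**Figure D3:**
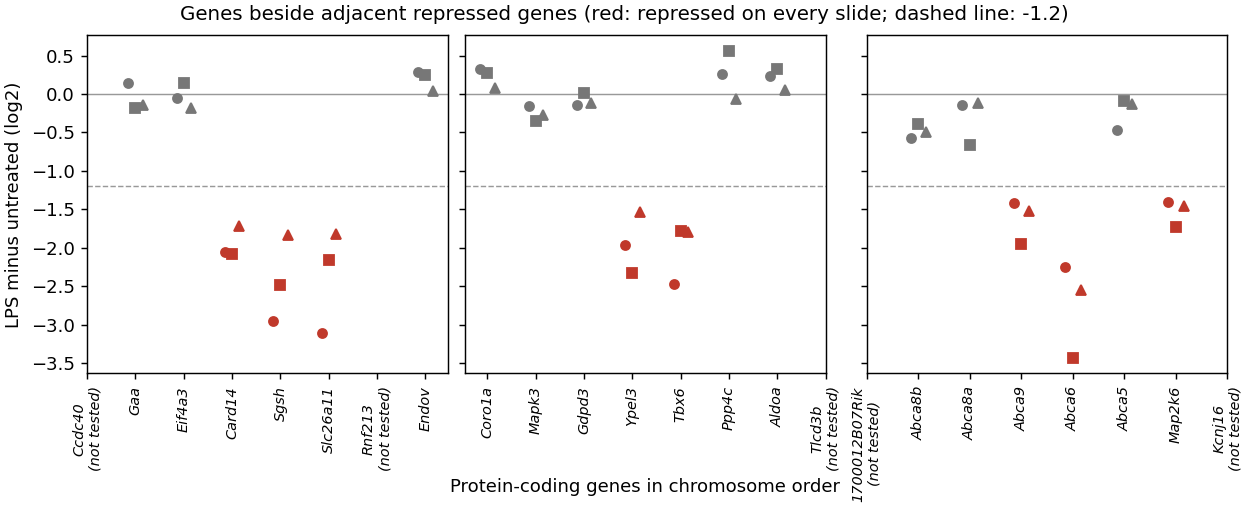
LPS minus untreated (log2) on slides 1, 2 and 3 (circles, squares, triangles) for protein-coding genes in chromosome order around Card14, Ypel3 and Abca9, with the chosen genes in red, other tested genes in grey and the threshold of -1.2 as a dashed line. The red genes lie below -1.2 while the grey genes beside them lie between -0.66 and 0.57. In each panel the red genes are adjacent, except that the grey gene Abca5 separates Map2k6 from Abca6.

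The comparison of LPS+curcumin with curcumin alone asks whether LPS lowers these genes in cells that also receive curcumin. Its log2 differences come from arrays that played no part in the choice of the genes. Its p-values are not independent of that choice. The limma fit estimates the spread from all groups, including the LPS and untreated arrays that chose the genes. None of the 143 genes passed an adjusted p below 0.05 in the limma fit, in either direction, against 0.0196% of all probes tested called lower and 0.18% called higher. At an unadjusted p below 0.05, 44 of the 143 (30.8%) were lower and 0 higher, against 3.35% and 2.74% of all probes. The median difference was -0.58, against -0.10 over all probes, and without curcumin replicate 1 it was -0.38, against -0.12. The smallest adjusted p was that of Card14, -1.45 ± 0.25 (SE; limma, adjusted p = 0.0575), followed by Cnr2 at -1.16 ± 0.21 (adjusted p = 0.0668) and Hid1, a protein of dense core vesicles, at -1.06 ± 0.19 (adjusted p = 0.0730). Cxcr4 was at -1.79 ± 0.40 (adjusted p = 0.221) and was the 1 gene called with the replicate number as a block (adjusted p = 0.0389), where 0.0353% of all probes were called lower.

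The 3 slides differed in this comparison. The median difference of the genes was -1.21, -0.57 and -0.13 on slides 1, 2 and 3, beside -0.31, -0.09 and 0.08 over all probes. At least 2-fold lower were 86 of 143 genes on slide 1, 22 of 139 on slide 2 and 14 of 143 on slide 3, against 12.6%, 1.15% and 1.41% of all probes. Of the 139 genes with a value on all 3, 71 (51.1%) were lower on every slide by any amount, against 20.2%. By at least 2-fold on every slide 5 were lower, against 0.101% of all probes, and 0 were higher, against 0.539%. On slides 2 and 3 alone 6 were at least 2-fold lower and 1 higher, against 0.134% and 0.774%. Slide 1 carries the LPS+curcumin array that resembled the LPS arrays, and on it 93 of 143 genes lay nearer to LPS than to curcumin, against 52 of 139 on slide 2 and 32 of 143 on slide 3. The share of all probes that lay nearer to LPS was not counted. Without that array 1 gene was called lower, Cxcr2 at -1.15 ± 0.20 (limma, adjusted p = 0.0488), and the median was -0.56, with 0.0392% of all probes called lower. Without LPS+curcumin replicate 3, 6 genes were called lower, against 0.462% of all probes.

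**Figure D4:**
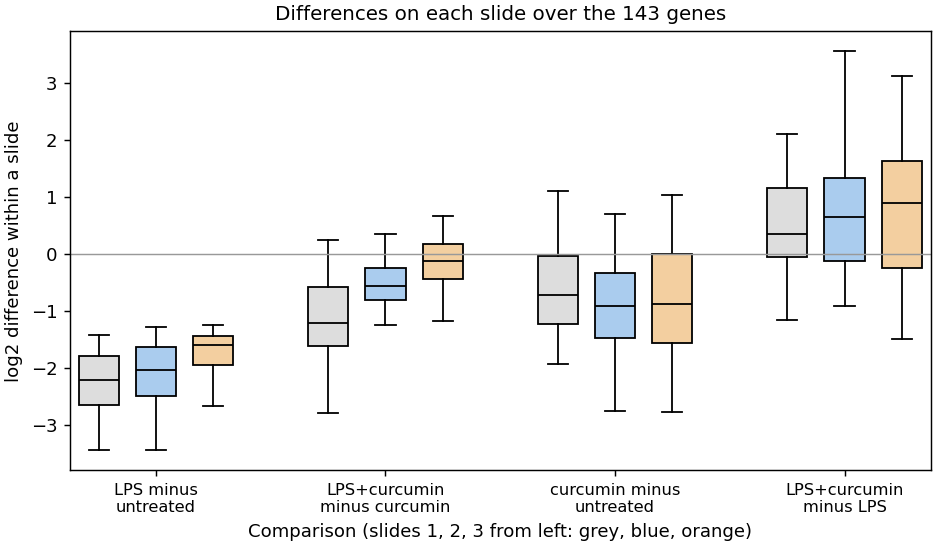
Differences within each slide over the 143 genes (log2), for 4 comparisons, with boxes from the lower to the upper quartile, lines at the median and whiskers from the 5th to the 95th percentile. The LPS effect without curcumin is the quantity used to choose the genes, and its counterpart with curcumin has medians of -1.21, -0.57 and -0.13 on slides 1, 2 and 3.

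Curcumin alone was set against the same untreated arrays that chose the genes, so the counts here are given beside their background and nothing is read from them. Of the 143 genes 48 were called lower and 6 higher in the limma fit, against 7.21% and 22.6% of all probes. At least 2-fold on every slide 37 were lower and 6 higher, against 3.05% and 10.9%. The median of the genes was -0.87, against 0.39 over all probes, and -0.72, -0.92 and -0.89 on slides 1, 2 and 3. The scaling moves these values: the curcumin arrays had a lower 75th percentile relative to their spike-in probes, and with spike-in scaling 107 genes were called lower and 4 higher, against 34.5% and 6.99% of all probes, with a median of -1.88, against -0.61. The genes' median minus that of all probes was -1.27 with each of the 5 scalings, and -0.08 with another background correction (normexp). All scalings but quantile scaling subtract 1 constant from each array, so the same value was fixed in advance for them. With all 5 scalings 45 genes were called lower and 3 higher, the latter Cxcr2, Tbx6 and an unnamed transcript. The share of all probes called with all 5 was not counted.

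The members' own values with curcumin alone are likewise given with no test, as the mean log2 difference from untreated ± SD over 3 slides. Gpr183 was at -4.46 ± 0.90, and Kctd12b, a subunit that modulates GABA-B receptors, at -3.34 ± 0.66. Kctd12b was at -0.96, -1.57 and -1.77 untreated, -2.92, -3.47 and -3.01 with LPS, -3.90, -4.56 and -5.87 with curcumin, and -4.09, -5.81 and -5.88 with both. Its curcumin arrays lay below all LPS arrays, and the curcumin and LPS+curcumin arrays overlapped. The differences were -3.07 ± 0.19 for Rtn4rl1, -2.30 ± 0.46 for Pax3, -1.58 ± 0.40 for Klf4, -1.50 ± 0.11 for Cnr2, -1.45 ± 0.11 for Sesn1 and -1.27 ± 0.29 for Bambi. In the other direction, Cxcr2 was at 2.66 ± 0.31 and Tbx6 at 2.68 ± 0.06. Rspo1, an activator of Wnt signalling, was at -4.67, -4.31 and -5.60 untreated, -2.92, -2.69 and -2.73 with curcumin, and -6.06, -3.38 and -2.22 with both. With LPS it was at -8.28, -6.01 and -7.23 and well above background on 1 array. The background correction moved some of these values more than others, and the reason was not tested. With normexp the fitted difference was -0.61 for Kctd12b, 0.70 for Rtn4rl1 and 0.18 for Pax3. It was -3.51 for Gpr183, -1.56 for Klf4, -1.12 for Cnr2, -1.63 for Bambi, 2.09 for Cxcr2 and 2.02 for Tbx6.

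LPS+curcumin against LPS shares the LPS arrays with the choice of the genes, and is likewise a description. Called higher were 34 genes and lower 3, against 13.3% and 5.92% of all probes. At least 2-fold on every slide 19 of 139 were higher and 2 lower, against 2.93% and 2.18%. The median was 0.63, against 0.31 over all probes, and it turned to -0.11 with median scaling and -0.09 with spike-in scaling, where 13 and 11 genes were called higher, against 4.82% and 4.53% of all probes, and 11 and 8 lower, against 16.3% and 10.1%. The genes' median minus that of all probes was 0.32 as reported, 0.31 and 0.32 with these scalings and 0.07 with quantile scaling. Median and spike-in scaling only shift whole arrays, so a value near that reported was fixed in advance for them. Without LPS+curcumin replicate 1, 60 genes (of 143) were called higher and 7 lower, against 39.1% and 14.5% of all probes. At least 2-fold on slides 2 and 3 alone 39 of 139 were higher and 2 lower, against 14.3% and 5.93%.

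Single genes in this comparison are given with no test, as the mean log2 difference of LPS+curcumin from LPS ± SD over 3 slides. Slc26a11 was at 2.27 ± 0.26, Lpin1 at 1.93 ± 0.06, Cxcr4 at 1.59 ± 0.43, Pik3ip1 at 1.44 ± 0.43, Foxo6 at 1.34 ± 0.28 and Deptor at 1.13 ± 0.64. Without LPS+curcumin replicate 1 the fitted differences were 2.5, 2.26, 1.61, 1.66, 1.67 and 1.41 (in the same order), and with normexp they were 2.02, 1.40, 0.70, 1.27, 0.59 and 1.04. Abca6, Tbx6 and Cxcr2 were not well above background on any LPS array, and LPS+curcumin lay at least 6.02-fold, 3.58-fold and 3.34-fold above LPS. Lower than with LPS alone were Gpr183 at -2.76 ± 1.19, Kctd12b at -2.13 ± 0.87 and Cnr2 at -0.88 ± 0.04. Without LPS+curcumin replicate 1 these were -3.48, -2.71 and -0.86, and with normexp -1.62, -0.30 and -0.52. Of these genes Slc26a11 alone was called in the normexp fit, where 2 of the 143 were called higher and 0 lower.

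**Figure D5:**
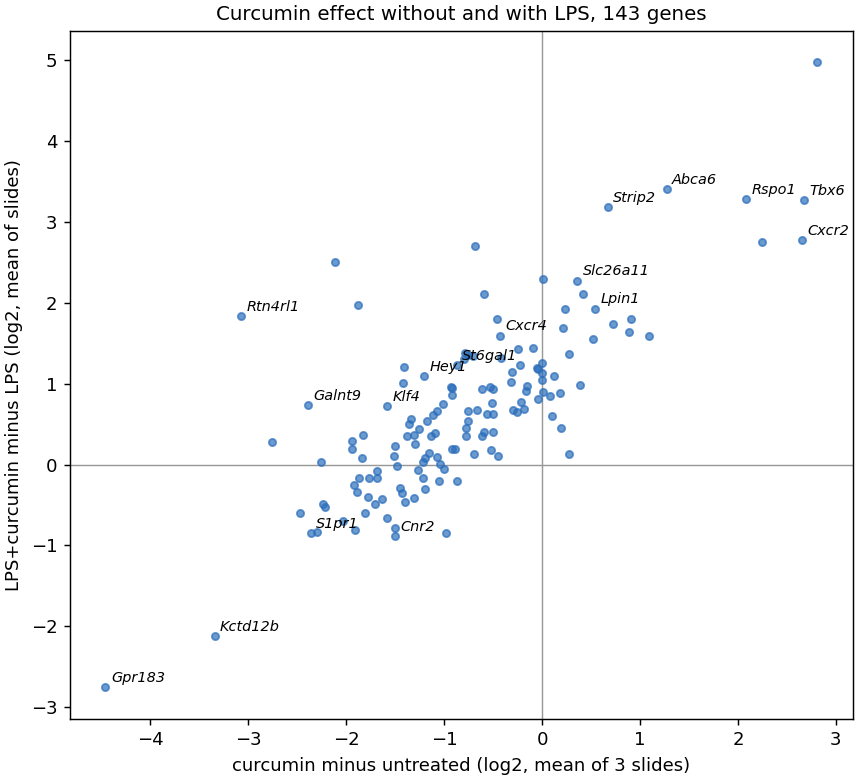
Mean log2 difference over slides of curcumin minus untreated (horizontal axis) and of LPS+curcumin minus LPS (vertical axis) for the 143 genes, with some named. The axes share no arrays, but each uses a group that chose the genes. Gpr183 and Kctd12b lie lowest on both axes, and Tbx6, Cxcr2 and Rspo1 are high on both.

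In the cells given both agents, 100 of the 143 genes had a mean between those of the LPS and the untreated arrays, 34 a mean below that of LPS and 9 a mean above that of untreated cells. Without replicate 1 these were 86, 39 and 18. The rule set the LPS and untreated levels apart, which favours a mean between them, and the shares over all probes were not counted. Nothing is therefore read from these counts. Relative to untreated cells the median was -1.66, -1.45 and -0.99 on slides 1, 2 and 3, against 0.03, 0.26 and 0.57 over all probes. Single high values on the array with many outlier spots weigh on some genes. Ypel1 was at -1.78 on LPS+curcumin replicate 2 against -3.91 and -4.01 on replicates 1 and 3, and the zinc finger gene Zfp786 at -2.24 against -6.10 and -7.03.

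Choosing on a pair of slides reuses values that chose the genes, so the counts on the remaining slide are a description. All 143 genes were among those chosen on each pair, and the rule already required their drop on the remaining slide. A pair of slides can pick a brighter probe of the same gene. The slides may also hold technical replicates. Probes chosen on slides 2 and 3 alone numbered 173 genes, and 147 of them (85%) were at least 1.2 lower on slide 1, against 2.95% of all eligible probes. For slide 2 it was 144 of 177 (81.4%, against 2.53%), and for slide 3 it was 140 of 269 (52%, against 1.12%), with medians of -2.02, -1.82 and -1.24 on the unused slides. Just inside the threshold by their smallest drop were Slc46a3 at 1.21, Susd3 at 1.22, Rasl11b at 1.22 and Gm14461 at 1.24. Just outside were Aph1c, Tbc1d4 at 1.197, Tmem51 at 1.188 and Treml1 at 1.185. Second probes were tested for 44 of the genes. Of these 54 probes 25 passed the same threshold themselves, so that their drop was fixed by the rule. Counting these 25, 51 were lower on every slide, where 30.8% of all probes were. Another 3 were mixed (Dusp27, Ago4 and an unnamed transcript) and 0 were higher on every slide.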

How the data were processed

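RNA of BV-2 cells was measured on 12 one-colour Agilent arrays, with the dye Cy3 per the labels' protocols. The deposited scanner files hold spot intensity on a linear scale, which the authors extracted and background-subtracted. The software was Feature Extraction from Agilent, given as 10.5.1.1 in the headers of the files and as 9.1 in the submitters' processing notes. The series' value table held intensity equal to this signal within 0.397% and served as an alternative. Each log2 processed signal was set against the 75th percentile of the non-control spots on its array, outlier spots were dropped and spots of a probe averaged. Probes well above background on all 3 arrays of a group (25531 of 41174) entered a limma 3.58.1 fit in R 4.3.3 of 4 group means over 12 arrays, two-sided, with Benjamini-Hochberg adjustment over all of them and calls at an adjusted p below 0.05. Symbols came from RefSeq accessions on GRCm38.p6, a gene table used for names and gene order only, since the file headers name mm9, and promoter coordinates are those of the RefSeq build. The members, lists and rule for named genes were chosen with earlier results of these data known. The named genes were the 12 members with the largest drop measured on at least 2 LPS arrays, the 4 highest bounds, the extremes of each comparison, the genes at the threshold and members of a list, and other names were chosen after their values were seen. Same-numbered arrays share a slide per the file headers: their deviations from group means correlated at 0.504, 0.368 and 0.710 for LPS+curcumin with curcumin, and at 0.552, 0.225 and 0.324 for curcumin with untreated. In data simulated for LPS+curcumin versus curcumin, the fit called 35 of 50 probes changed by 1 on the log2 scale and 48 of 50 changed by 2, of 24626. The simulated noise took the spread of the untreated arrays and was independent between arrays. Untreated arrays had mean correlations of 0.992 to 0.995 within their group, and LPS+curcumin arrays 0.943, 0.968 and 0.954. The simulated counts therefore do not give the power of the real comparison, whose arrays were less alike. Alternatives covered scaling, background correction, filters, the threshold, the slide as a block and leaving out each array. The number of arrays limits the precision. Some genes are not reported here.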

Additional observations from a re-analysis of the deposited data

Results flagged for a closer look

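In 11 cases a gene moved one way on every slide under a treatment given alone and the opposite way on every slide when the other agent was present, and none of these differences was tested. Cases for curcumin were sought among the 38 genes named by the rule, and cases for LPS among the 115 with a symbol. The share over all probes was not counted. The LPS direction without curcumin is fixed by the choice of the genes, and the LPS and untreated arrays enter every case. Choosing genes that are high in untreated cells and low with LPS also favours a curcumin effect below 0 without LPS and above 0 with it. Each difference of effects contains the LPS drop that chose the genes, so its sign and size are partly set by that choice. The effect of curcumin was below 0 without LPS and above 0 with LPS, on all 3 slides, for Hey1 (difference of the effects 2.30 on the log2 scale), Gm14461 (2.23), St6gal1 (2.10), Foxo6 (2.05), Cxcr4 (2.03), Rasl11b (1.87), Cytip (1.70) and Slc37a2 (1.34). The effect of LPS was below 0 without curcumin and above 0 with curcumin for Zfp786 (3.85), Klf4 (2.30) and Rasl11b (1.87). Both entries of Rasl11b are the same difference, read from either treatment. For Cxcr4 the effects of curcumin were -0.43 without LPS and 1.59 with it, and for Klf4 the effects of LPS were -2.06 without curcumin and 0.24 with it. On slides 2 and 3 alone, without LPS+curcumin replicate 1, the differences in these cases lay between 1.58 (Slc37a2) and 3.54 (Zfp786). The value of Zfp786 rests on LPS+curcumin replicate 2, at -2.24 against -6.10 and -7.03 on the other two arrays.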

How the results depend on the processing

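The number of genes chosen was 143. It became 228 with median scaling, 30 with normexp on the median signal, 251 with a drop of at least 1 and 87 with a drop of at least 1.5, and 173 to 269 without one replicate. All 143 stayed lower on every slide with quantile, median, spike-in and always-detected scaling, and 124 did with normexp. Normexp on the mean signal was not run, because the files used hold a median signal column, and the median was used instead, chosen after seeing the data.

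For LPS+curcumin versus curcumin, 0 genes were called lower. With quantile scaling 3 were called, with the replicate block 1, with the replicate block and without LPS+curcumin replicate 1 again 1, and leaving out 1 array gave 0 to 6. Over all 25531 probes these fits called 15, 9, 14 and 0 to 118 lower, against 5 as reported. The median kept its sign and none was called higher under the 24 alternatives run.

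For curcumin versus untreated, 48 genes were called lower and 6 higher. These were 103 lower with median scaling, 107 with spike-in scaling, 8 with normexp, and 83 with the replicate block and without LPS+curcumin replicate 1, and 22 to 66 when 1 array was left out. Over all 25531 probes these fits called 6481, 8801, 150, 3943 and 475 to 3202 lower, against 1840 as reported. Called higher were 3 with quantile scaling, 1 with normexp and 10 with the replicate block and without LPS+curcumin replicate 1. Over all probes these fits called 3049, 884 and 11388 higher, against 5764 as reported. The median of -0.87 became -1.27 with quantile, -1.71 with median and -1.88 with spike-in scaling, and 0.40 with normexp, and lay between -1.08 and -0.67 when 1 array was left out.

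For LPS+curcumin versus LPS, 3 genes were called lower and 34 higher. With quantile scaling these were 6 and 18, with median scaling 11 and 13, with spike-in scaling 8 and 11, with normexp 0 and 2, in a fit of the 2 groups alone 0 and 6, and with the replicate block and without LPS+curcumin replicate 1, a pair of choices added after seeing the data, 8 and 73. Leaving out 1 array gave 0 to 7 lower and 19 to 60 higher. Over all 25531 probes 1512 were called lower and 3395 higher as reported. In the same order these were 1785 and 1772, 4164 and 1231, 2568 and 1156, 84 and 21, 257 and 236, and 4182 and 11187. Leaving out 1 array gave 588 to 3710 lower and 954 to 9973 higher over all probes. The median of 0.63 became 0.10 with quantile, -0.11 with median and -0.0893 with spike-in scaling, and 0.93 with the last pair of choices. The replicate block changed no other call count by over 1.5 times. The cause of these changes was not tested. Same-numbered arrays of this comparison correlated at 0.175, 0.121 and -0.037 in their deviations.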
